A study of Mus musculus with 9 samples.

Results

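The 7 genes described here are Ighm and 6 other immunoglobulin or B cell genes, Ighd, Igkc, Jchain, Cd79a, Cd79b and Ms4a1, out of 29386 gene identifiers in the deposited tables of mouse brown fat and brown adipocytes. They were chosen by name, with earlier results of these data known, so that Ighm, whose counts differed widely between genotypes, could be set beside other transcripts of the B lineage. The differences of Ighm are therefore given as a description, without a test. All 7 have a row in the table of brown adipose tissue (BAT), and Ighm, Jchain and Cd79a have rows in the 2 culture experiments, where the other 4 are not analysed.

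RNA with a poly(A) tail was sequenced in 3 experiments, which asked how loss of Setdb1 changes brown fat and brown adipocytes. In BAT, 2 libraries from Setdb1 AKO mice (Setdb1 fl/fl; Adipoq-Cre+) were set against 2 from control mice (Setdb1 fl/fl; Adipoq-Cre-). The titles of the BAT libraries of both genotypes carry the code TN_CE. Its meaning is not given in the sources used here, so whether it names a condition of the mice is not known. Primary brown adipocytes of genotype Setdb1 flox/flox; Rosa26Cre-ERT2 received 4-OHT at 1 μM, which activates the Cre, or the vehicle ETOH, with 1 library each. Primary brown adipocytes were also transfected with siSetdb1 (2 libraries) or with siNC (1 library). Both BAT genotypes carry the floxed alleles and both 4-OHT groups carry the Cre-ERT2. The Adipoq promoter drives Cre in adipocytes. No group has Adipoq-Cre with an intact Setdb1, and none has 4-OHT without Cre-ERT2, so the effect of Cre or 4-OHT and that of the deletion cannot be told apart. The ages and sexes of the mice, whether each BAT library is 1 mouse, and whether the siSetdb1 libraries came from separate cultures are not given in the sources used here, so the p-values rest on a spread among libraries that may be technical.

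An antibody is built from heavy chains and light chains, each with a variable end that binds antigen and a constant end. Ighm encodes the constant part of the heavy chain of IgM, the first antibody class that a B cell makes. In B cells, V, D and J segments lying upstream are joined in the DNA and spliced onto the Ighm exons. The membrane form of IgM pairs with a light chain, usually kappa in mice, and with the signalling subunits Cd79a and Cd79b to form the B cell receptor. The secreted form is made by plasma cells and is held together by the joining chain Jchain. B lineage cells also make transcripts of heavy chain constant genes that lack a joined V segment. Setdb1 is a histone methyltransferase that places the repressive mark H3K9me3.

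Ighm (ENSMUSG00000076617) lies at chr12:113418558-113422730 on the minus strand of GRCm38, and the files give it a length of 1886 bases. GENCODE M21 lists a membrane form with 6 exons and a secreted form with 4, and the count per gene sums both. The sequences that follow are GENCODE M21 transcript sequences, each read 5′ to 3′ on its own strand. The start of the first constant exon is shown because the joined variable exon of a B cell transcript ends directly before it, and the start of the kappa constant exon is shown as its partner in the light chain. The other stretches are those by which the forms of Ighm differ. Capitals mark the 59 coding bases used by the secreted form alone and the 116 bases of the first exon used by the membrane form alone.
Ighm constant exon start, chr12:113422581-113422730, minus strand: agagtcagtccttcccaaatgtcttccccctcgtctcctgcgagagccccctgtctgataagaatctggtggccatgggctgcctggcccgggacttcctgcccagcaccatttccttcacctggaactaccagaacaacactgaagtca
Ighm coding end of the secreted form, chr12:113420870-113420958, minus strand: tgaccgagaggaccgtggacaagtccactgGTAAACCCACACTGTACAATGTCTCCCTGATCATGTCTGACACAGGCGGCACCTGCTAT
Ighm first membrane exon, chr12:113418953-113419068, minus strand: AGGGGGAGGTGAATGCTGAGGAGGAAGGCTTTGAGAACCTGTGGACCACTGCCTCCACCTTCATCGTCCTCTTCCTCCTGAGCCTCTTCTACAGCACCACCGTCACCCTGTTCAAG
Igkc start, chr6:70726435-70726584, plus strand: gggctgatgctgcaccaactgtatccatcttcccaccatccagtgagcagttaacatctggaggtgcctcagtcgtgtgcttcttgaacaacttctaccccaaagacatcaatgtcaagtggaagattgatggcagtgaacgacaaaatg

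The sequence of Ighm is its own. Of its 1856 stretches of 31 bases, 0 occur in any other GENCODE M21 gene, and no annotated gene overlaps it. The same holds for the 502 stretches of Igkc, although the gene Gm30211 overlaps Igkc on its strand. Of the stretches of Cd79a, 12.2% also occur in the pseudogene Gm32220, so its few reads are uncertain. Ms4a1 shares 2.34% of its stretches with other genes and overlaps 4930526L06Rik on the opposite strand. Whether the counting used strand is not given in the sources used here.

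Reads counted to genes totalled 15979479 to 16940622 per library in BAT, 17593799 to 18468152 in the siRNA experiment, and 30176359 and 29911734 in the 4-OHT and ETOH libraries. Setdb1 itself had 152 and 185 reads in the AKO libraries, against 496 and 466 in controls (normalised count 174 ± 24.4 against 464 ± 12.6, SD, n = 2 libraries each). The log2 fold change was -1.42 (SE 0.19, limma adjusted p = 0.0216). It had 366 and 392 reads with siSetdb1, against 794 with siNC, and 620 reads with 4-OHT, against 1070 with ETOH. Setdb1 was thus lower in all 3 experiments, and some of its transcript remained in each.

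In BAT, Ighm was counted at 5232 and 8807 reads in the Setdb1 AKO libraries, against 61 and 46 reads in the control libraries. The groups are far apart, and the spread within each is small beside the gap between them. As counts scaled between libraries by the authors (normalised counts), the AKO libraries averaged 7235 ± 2620 and the control libraries 51.31 ± 6.56 (SD, n = 2 each), a 141-fold ratio of means. The fitted log2 fold change was 7.07 (SE 0.26), on the scale log2(normalised count + 1), and it ranked 6th of the 14466 genes tested. At a false discovery rate of 0.05 in limma, 1.00% of these genes were called higher in AKO BAT and 0.677% lower. Ighm is among those called higher, but nothing is read from that here, because it was chosen with this difference known.

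Levels per gene length place Ighm among all other transcripts of the same library. Expressed as RPKM (reads per kb of gene length per 1000000 reads of the library), Ighm stood at 167 and 291 in the AKO libraries, against 1.91 and 1.53 in controls. It ranked 330th and 166th of 22721 genes in the AKO libraries, and 9243rd and 9700th in the control libraries. A transcript near the middle of the ranking in control tissue was thus close to its top in AKO tissue.

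Ighm had 1311 reads in the 4-OHT library and 67 in the ETOH library. The ratio of their reads, after TMM scaling between the libraries, was 20.3 (95% exact interval 15.9 to 26.4, for counting error alone). There was 1 library per group and no replicate check. The log2 ratio with a prior count of 2 was 4.30 and ranked 6th of 13969 genes, as Ighm ranked 6th in BAT. Of those genes, 1.28% were at least 2-fold higher in the 4-OHT library and 1.65% at least 2-fold lower.

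In the siRNA cells the gap was smaller. Ighm had 1374 and 1056 reads with siSetdb1, against 853 with siNC. Both siSetdb1 libraries lay above the siNC library, as they did for 34.1% of the 15224 genes tested there, and both lay below it for 33.8%. The ratio of normalised means was 1.47 and the log2 fold change 0.54 (SE 0.16), which ranked 889th from the highest. The normalised level was 1234 ± 224 with siSetdb1 (SD, n = 2) and 842 in the lone siNC library.

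The level in siNC cells was itself high. In RPKM, Ighm ran from 167 and 291 in AKO BAT through 41.1 and 31.8 with siSetdb1, 24.5 with siNC and 23.0 with 4-OHT to 1.91 and 1.53 in control BAT and 1.19 with ETOH. The siNC library thus had about the level of the 4-OHT library, and both lay well above control BAT and ETOH cells. These experiments were normalised separately and no test was made between them. The siRNA cells and the ETOH cells are both described as primary brown adipocytes, and what else differed between the cultures is not given in the sources used here.

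**Figure D1:**
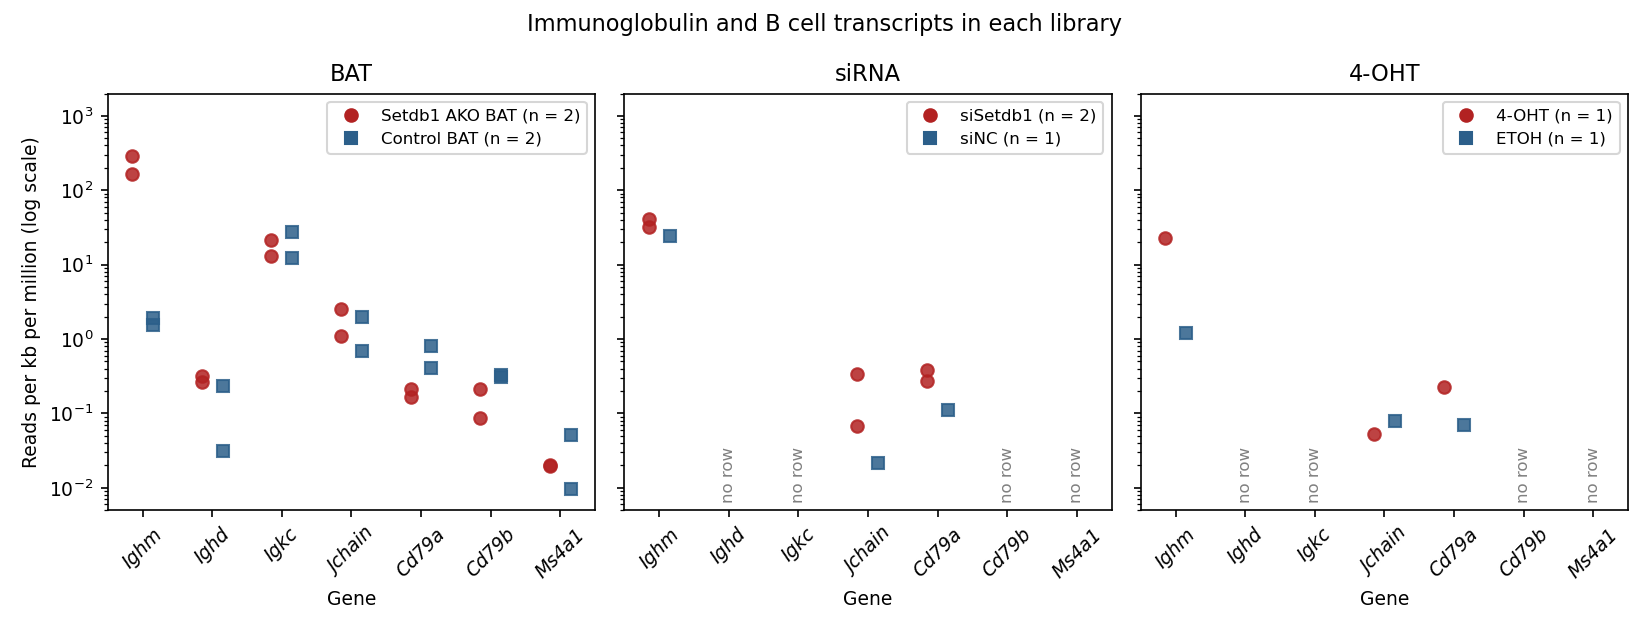
Levels of the 7 genes in every library, in RPKM (reads per kb of gene length per 1000000 reads) on a log scale, with red circles for Setdb1 AKO BAT, siSetdb1 and 4-OHT and blue squares for control BAT, siNC and ETOH. Ighm stands at 167 and 291 in AKO BAT, against 1.91 and 1.53 in control BAT, while the values of Igkc and Jchain overlap between genotypes; genes with no row in a culture table are marked.

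The kappa light chain had overlapping values in the genotypes. Igkc (chr6:70726435-70726966), the constant part of the kappa chain, had 188 and 112 reads in AKO libraries, against 250 and 105 in controls. The groups overlap, with library 1 above library 2 in each genotype. Its normalised count was 154.5 ± 55.1 in AKO libraries and 167.9 ± 86.8 in controls (SD, n = 2 each), and the log2 fold change was -0.06 (limma, SE 0.40, adjusted p = 0.958). The sign of this small difference depends on single libraries: it was 0.31 without AKO library 2 and 0.49 without control library 1.

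Jchain, the joining chain of secreted IgM and IgA, had 105 and 45 reads in AKO libraries, against 83 and 28 in controls. The groups overlap here too, and library 1 is again the higher of each genotype. The log2 fold change was 0.59 (SE 0.56, limma adjusted p = 0.633), and it became -0.01 without AKO library 1 and -0.10 without control library 2. Of the members other than Ighm, Igkc and Jchain alone passed the filter of 10 normalised counts in 2 libraries, and 0 of these 2 were called by limma, with 0 at an unadjusted p below 0.05 and 0 called by edgeR or DESeq2; 1.68% of all genes tested were called in either direction by limma, and 17.7% had an unadjusted p below 0.05.

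Set against each other within a library, the transcripts gave different ratios in the genotypes. There were 27.8 and 78.6 Ighm reads per Igkc read in AKO libraries, against 0.244 and 0.438 in controls. Per gene length, the ratio of Ighm to Igkc was 7.85 and 22.2 in AKO libraries, against 0.0688 and 0.124 in controls. In control tissue the kappa transcript was the more abundant, and in AKO tissue Ighm was.

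Other immunoglobulin transcripts served as further denominators. Per Jchain read there were 49.8 and 196 Ighm reads in AKO libraries, against 0.735 and 1.64 in controls. Per read of Igha, the constant part of the IgA heavy chain, there were 15.3 and 68.8, against 0.147 and 0.272 in controls. The ratio of Igha to Igkc per gene length shows how 2 other immunoglobulin genes compare, and it was 0.364 and 0.228 in AKO libraries, against 0.331 and 0.321 in controls. The AKO values of that ratio lie on both sides of the control values.

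Igkc, Jchain, Igha and the summed V segments were all higher in library 1 than in library 2 of both genotypes, whereas Ighm in AKO tissue was higher in library 2. Ptprc, which encodes the leukocyte surface protein CD45, followed the same order, with 195 and 138 reads in AKO libraries, against 280 and 111 in controls. So did natural killer cell genes, which summed to 79 and 65 reads, against 122 and 74. The order was not general. The IgG constant gene Ighg2c had 11 and 37 reads in AKO libraries, against 23 and 0 in controls. The 22 genes of the B cell list described below summed to 203 and 222, against 237 and 187. The 12 macrophage genes summed to 4022 and 4876, against 6024 and 3428. Like Ighm, these were higher in library 2 of AKO tissue. In bulk tissue, fewer cells of a type and less RNA per cell cannot be told apart.

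**Figure D2:**
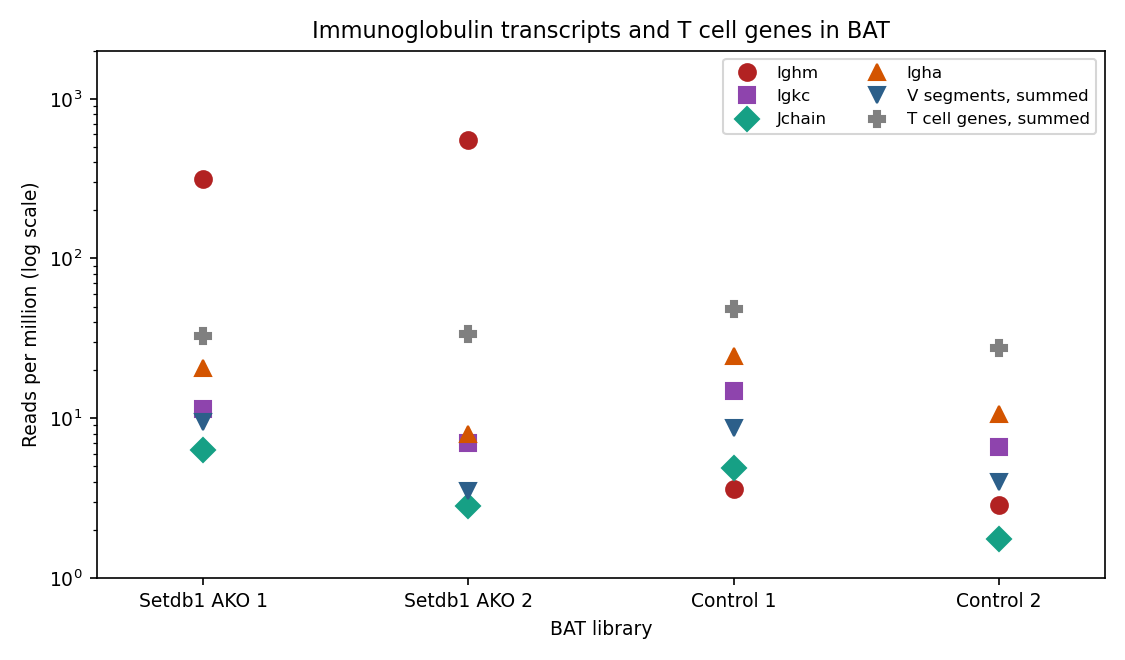
Reads per 1000000 (RPM, log scale) of Ighm, Igkc, Jchain and Igha and of the summed V segments and T cell genes, in the 2 Setdb1 AKO and the 2 control BAT libraries. Ighm lies above every other value in both AKO libraries (316 and 548 RPM) and, at 3.60 and 2.88 in controls, below Igkc and Igha there.

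Variable segments mark transcripts that begin with a rearranged V exon. Segments were found by V, D or J symbols, and all are called V segments here. In BAT, 64 had rows, of which 27 are heavy, 35 kappa and 2 lambda. Together they had 156 and 56 reads in AKO libraries, against 148 and 64 in controls, and these ranges overlap. The heavy segments alone had 40 and 17 reads in AKO libraries, against 46 and 20 in controls. For each V segment read there were 33.5 and 157 Ighm reads in AKO libraries, against 0.412 and 0.719 in controls.

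The number of segments with at least 1 read was 40 and 23 in AKO libraries, against 38 and 23 in controls. Igkv1-117 had the most reads, 33 and 3 in AKO libraries against 14 and 6 in controls. Igkv1-110 had 3 and 2 in AKO libraries, against 12 and 14 in controls, and Igkv10-96 had 5 and 5, against 7 and 2. With siRNA, 1 kappa segment had a row, with 0 and 2 reads for siSetdb1 and 0 for siNC. The count tables do not show where in Ighm the reads fall or what they are spliced to. The heavy chain J segments, which lie 5.78 to 7.05 kb upstream of Ighm, are not analysed here.

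Ighd, the constant part of the IgD heavy chain, lies 2234 bases beyond Ighm in the direction of transcription, and B cells can make both from 1 primary transcript. It had 10 and 8 reads in AKO libraries, against 1 and 7 in controls. Both AKO libraries were above both controls, by 1 read at the nearest, and the gene did not pass the filter. Per gene length, Ighd stood at 0.318 and 0.262 RPKM in AKO tissue, against 0.0311 and 0.231 in controls.

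The receptor subunits had few reads in BAT. Cd79a (chr7:24897381-24902197) had 4 and 5 reads in AKO libraries, against 10 and 19 in controls, and Cd79b (chr11:106311341-106314762) had 5 and 2 in AKO libraries, against 8 and 7. Both AKO libraries were below both controls for each of them. Ms4a1, which encodes the B cell surface protein CD20, had 2 and 2 reads in AKO libraries, against 1 and 5 in controls. Read against all genes tested, of which 25.1% had both AKO libraries above both controls and 24.9% had both below, the members divide into 2 above (Ighm and Ighd), 2 below (Cd79a and Cd79b) and 3 that overlap. The receptor subunits, Ms4a1 and Ighd did not pass the filter and were not tested, so these shares are no matched background for them.

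In the cultures, Cd79a had 10 and 7 reads with siSetdb1, against 3 with siNC (log2 fold change 1.26, SE 1.00, limma adjusted p = 0.947). It had 10 reads with 4-OHT, against 3 with ETOH, and the interval of that ratio, 0.890 to 19.6, includes equality. Jchain had 15 and 3 reads with siSetdb1, against 1 with siNC (log2 fold change 2.03, SE 1.29, limma adjusted p = 0.941), and 4 with 4-OHT, against 6 with ETOH. Against the 1056 to 1374 Ighm reads with siSetdb1 and the 853 with siNC, neither transcript exceeded 15 reads in any culture library. Of the 2 members other than Ighm tested with siRNA, limma called 0, with 0 at an unadjusted p below 0.05 and 0 called by edgeR or DESeq2, where 5.06% of all genes tested had such a p and limma called 0.0328% higher and 0.00657% lower, 0.0394% in either direction.

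A wider list held 22 genes known from B cells, not all of them confined to that lineage. All had a row in BAT and 6 passed the filter, 3 of them with a positive and 3 with a negative log2 fold change. Their median was -0.06, against 0.006 for all genes tested, and it was 0.25 without AKO library 1 and 0.43 without control library 1. Limma called 0 of them, with 0 at an unadjusted p below 0.05 and 0 called by edgeR or DESeq2, where 17.7% of all genes tested had such a p. Several of the 6 were also read in the ETOH culture, where Pax5, the transcription factor of B cell identity, had 1 read: Cd180 had 349 reads there, Cd37 485, Ralgps2 148 and Cd72 82. The median and sum of this list are therefore not a measure of B cells alone. Of the 6, those with the smallest limma p were Vpreb3 (log2 fold change 0.73, limma adjusted p = 0.399), Stap1 (0.73, adjusted p = 0.426) and Cd37 (-0.29, adjusted p = 0.67). Next was Cd180, a receptor that modulates B cell activation (-0.51, adjusted p = 0.789). By normalised count, both AKO libraries lay above both controls for Vpreb3 and Stap1, and below both for Cd37 and Ralgps2. Of all genes tested, 25.1% lay above in this way and 24.9% below. The reads of all 22 summed to 12.2 and 13.8 per 1000000 (RPM) in AKO libraries, against 14.0 and 11.7 in controls.

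The other 16 genes of the list had at most 22 reads in any BAT library. By normalised count, 4 of them had both AKO libraries above both controls and 0 had both below. Of all genes tested, 25.1% had both above and 24.9% had both below. Those genes passed the filter, so the shares are no matched background for genes with so few reads. Spib, a transcription factor of B cells and plasmacytoid dendritic cells, had 7 and 9 reads in AKO libraries, against 0 and 0 in controls. Ly6d had 8 and 2, against 0 and 0 in controls, and Fcrl1 had 1 and 2, against 0 and 0. Fcrla, with 2 and 2 reads against 2 and 1 in controls, lay above by the scaling between libraries. These genes were not tested. Pax5 had 0 and 0 reads in AKO libraries, against 0 and 2 in controls. Mzb1 and Tnfrsf17, markers of plasma cells, had 4 and 2 reads and 0 and 1 reads in AKO libraries, against 2 and 1 and 2 and 0 in controls.

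Genes of signalling below the B cell receptor, many of which other cells also express, divided evenly. Of 16 tested, 8 had positive and 8 negative log2 fold changes, with a median of -0.04, and limma, edgeR and DESeq2 called 0. At an unadjusted p below 0.05 there were 2, both negative: Ptpn6, which encodes the phosphatase SHP-1 (-0.89, limma adjusted p = 0.216), and Pik3ap1, an adaptor for PI3 kinase (-1.04, adjusted p = 0.262). Such a p was found for 17.7% of all genes tested.

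Of the other immunoglobulin constant genes, 7 had a row in BAT and 2 were tested. Igha had 343 and 128 reads in AKO libraries, against 415 and 169 in controls (log2 fold change -0.24, SE 0.51, limma adjusted p = 0.853). Ighg2c, an IgG constant gene, had 11 and 37 reads in AKO libraries, against 23 and 0 in controls (2.22, SE 1.37, limma adjusted p = 0.452). The groups overlap for both. The other 5 were below the filter, with at most 10 reads in any library. Of these, only Ighg1 had both AKO libraries above both controls, with 3 and 3 reads against 0 and 0, and 0 had both below. Both lay above for 25.1% of all genes tested, which, unlike Ighg1, passed the filter. Genes of the IgG classes resemble one another, so the split of reads among them is uncertain.

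Of 9 plasma cell genes tested, 8 had a positive and 1 a negative log2 fold change, with a median of 0.29, which was 0.01 without control library 2. Limma and edgeR called 0, DESeq2 called 1, and 3 had an unadjusted p below 0.05, as did 17.7% of all genes tested. Derl3, which serves protein degradation at the endoplasmic reticulum, had 51 and 72 reads in AKO libraries, against 16 and 13 in controls (log2 fold change 2.09, SE 0.39, limma adjusted p = 0.0511). DESeq2 gave it 2.19 with an adjusted p of 0.00963. The siRNA and 4-OHT cultures, which had at most 15 Jchain reads, also held Derl3, with 174 and 116 reads for siSetdb1, against 106 for siNC, and 82 reads for 4-OHT, against 56 for ETOH. Sdc1, which encodes the plasma cell surface protein CD138 and is also made by epithelial cells, had 130 and 199 reads in AKO libraries, against 115 and 83 in controls (0.81, SE 0.29, limma adjusted p = 0.205). Both AKO libraries lie above both controls for Derl3 and Sdc1. Irf4, a factor that brown adipocytes express as well, had 1205 and 1079 reads in AKO BAT, against 2143 and 1402 in controls (-0.51, limma adjusted p = 0.228).

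**Figure D3:**
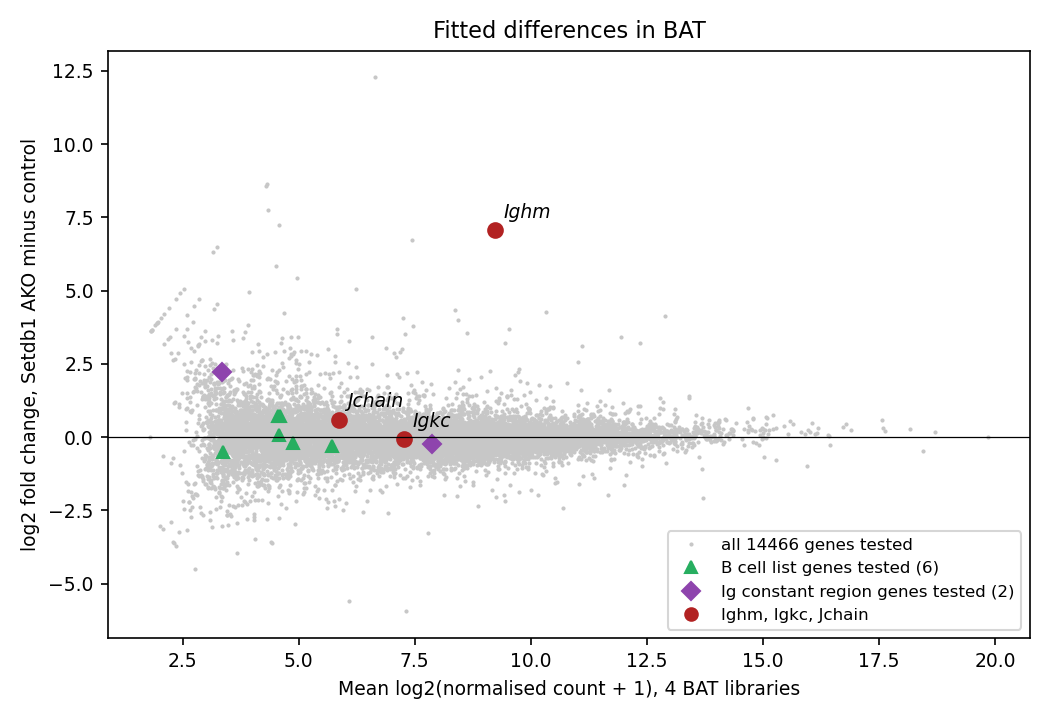
Fitted log2 fold change in BAT (Setdb1 AKO minus control) against the mean log2(normalised count + 1) of the 4 libraries, for all 14466 genes tested. Ighm lies at 7.07, Igkc at -0.06 and Jchain at 0.59, and the 6 tested genes of the B cell list lie between -0.51 and 0.73.

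Markers of other blood cells were summed beside these values. The 15 T cell genes, all of them tested, had a median log2 fold change of -0.23 and summed to 32.9 and 33.6 RPM in AKO libraries, against 48.1 and 27.4 in controls. The 12 macrophage genes had a median of 0.09 and summed to 243 and 304, against 356 and 215 in controls. In both lists the AKO values lie between the control values, and limma, edgeR and DESeq2 called 0 genes. At an unadjusted p below 0.05 there were 0, where 17.7% of all genes tested had such a p.

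Erythroid genes were above the controls in both AKO libraries, at 794 and 781 RPM against 529 and 588 in controls. The 5 tested had a median log2 fold change of 0.58, which ran from 0.23 to 0.74 with single libraries left out. Limma and edgeR called 0 of them, and 2 had an unadjusted p below 0.05, as did 17.7% of all genes tested. DESeq2 called Hba-a1, whose reads cannot be told apart with certainty from those of its near-identical copy. Of 5 genes of lymph node stroma, Ccl21a, a chemokine of lymphatic tissue that also has near-identical copies, was the one tested. It had 33 and 12 reads in AKO libraries, against 2 and 0 in controls (3.68, limma adjusted p = 0.0934, DESeq2 adjusted p = 0.0316). Cxcl13, the other gene of this list with a row, was below the filter and went the other way. It had 5 and 5 reads in AKO libraries, against 17 and 8 in controls. The 2 early B lineage genes tested were Ebf1, which adipocytes also express, and Erg, which endothelium expresses. Dntt, the other one with a row, had at most 3 reads in any library, so the median of this list does not measure early B cells. In BAT, 4 natural killer cell genes tested had a median of 0.12, 4 neutrophil genes 0.54, 5 dendritic cell genes -0.20, 2 early B lineage genes 0.14 and 6 adipocyte genes 0.19. With single libraries left out, these medians ran from -0.30 to 0.60 for natural killer cell genes, 0.04 to 1.83 for neutrophil genes, -0.76 to 0.24 for dendritic cell genes and 0.02 to 0.30 for adipocyte genes. Limma, edgeR and DESeq2 called 0 of these genes, and only Nkg7, a granule protein of cytotoxic cells, had an unadjusted p below 0.05 (-1.64, limma adjusted p = 0.146). The part of blood or lymphatic tissue in the differences of Ighm was not tested.

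The 4-OHT and ETOH cultures held more macrophage transcripts than BAT, while natural killer and dendritic cell genes were lower there, with each table normalised separately. The macrophage genes summed to 2030 RPM with 4-OHT, against 3630 with ETOH, beside 8510 and 6940 for 6 adipocyte genes. The leukocyte gene Ptprc had 830 reads with 4-OHT, against 1254 with ETOH. Natural killer cell genes summed to 0.133 RPM with 4-OHT, against 0 with ETOH, and dendritic cell genes to 2.98, against 5.65. In BAT these lists summed to at least 4.05 and 9.53 RPM in every library. The genes of the B cell list summed to 35.3 RPM with 4-OHT, against 50.6 with ETOH, most of it from Cd37, Cd180, Siglecg, Ralgps2 and Cd72. Of the 6 tested, 1 had a positive and 5 a negative log2 ratio (median -0.31), and only Cd37, a leukocyte tetraspanin, was at least 2-fold lower (229 reads, against 485 with ETOH). B cell receptor signalling genes had a negative log2 ratio in 15 of 15 tested, with a median of -0.30, against 0.011 for all genes. Ighm had a log2 ratio of 4.30 in the 4-OHT library, and the part of leukocytes in that difference was not tested.

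In the siRNA cultures the macrophage genes summed to 28.6 and 28.7 RPM with siSetdb1, against 54.4 with siNC, and Ptprc had 4 and 7 reads, against 8. The 10 macrophage genes tested had a median log2 fold change of -0.84. Limma called 0, with 2 at an unadjusted p below 0.05, where 5.06% of all genes tested with siRNA had such a p. The tools edgeR and DESeq2 each called Lyz2, which encodes lysozyme. The genes of the B cell list summed to 7.11 and 11 RPM with siSetdb1, against 8.56 with siNC, so the siSetdb1 values lie on both sides of the siNC value. Pax5 had 2 and 0 reads with siSetdb1, against 0 with siNC. The siNC library had 853 Ighm reads, and the part of leukocytes in them was not tested.

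No gene tested around Ighm was called in BAT. Within 1 Mb, 46 other genes had a row in BAT and 24 were tested, with a median log2 fold change of -0.04. Limma called 0 of them, as did edgeR and DESeq2. Of all genes tested, limma called 1.68% in either direction, so 0 of 24 is close to that share. An unadjusted p below 0.05 was found for 4 of the 24, 2 of each sign, and for 17.7% of all genes tested. Their values ran from -2.15 for Gm30238 to 2.22 for Ighg2c. The nearest tested genes on the lower coordinates are Ighg2c and Igha, 130 and 158 kb away. The nearest outside the immunoglobulin cluster are Crip1 and Crip2, small proteins with a zinc-binding LIM domain, 265 and 273 kb away, at 0.44 and -0.06. No gene on the side of the V segments was tested.

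In the cultures, 23 neighbours were tested with siRNA, with a median of -0.07 and a range from -0.76 to 0.27. Limma, edgeR and DESeq2 called 0, while 2 had an unadjusted p below 0.05, as did 5.06% of all genes tested there. Limma called 0.0394% of all genes tested there in either direction. With 4-OHT, 20 were tested, with a median of -0.06 and a range from -0.28 to 0.89, and 0 were 2-fold different in either direction. Of all genes there, 1.28% were at least 2-fold higher and 1.65% at least 2-fold lower, so 0 of 20 is close to these shares.

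**Figure D4:**
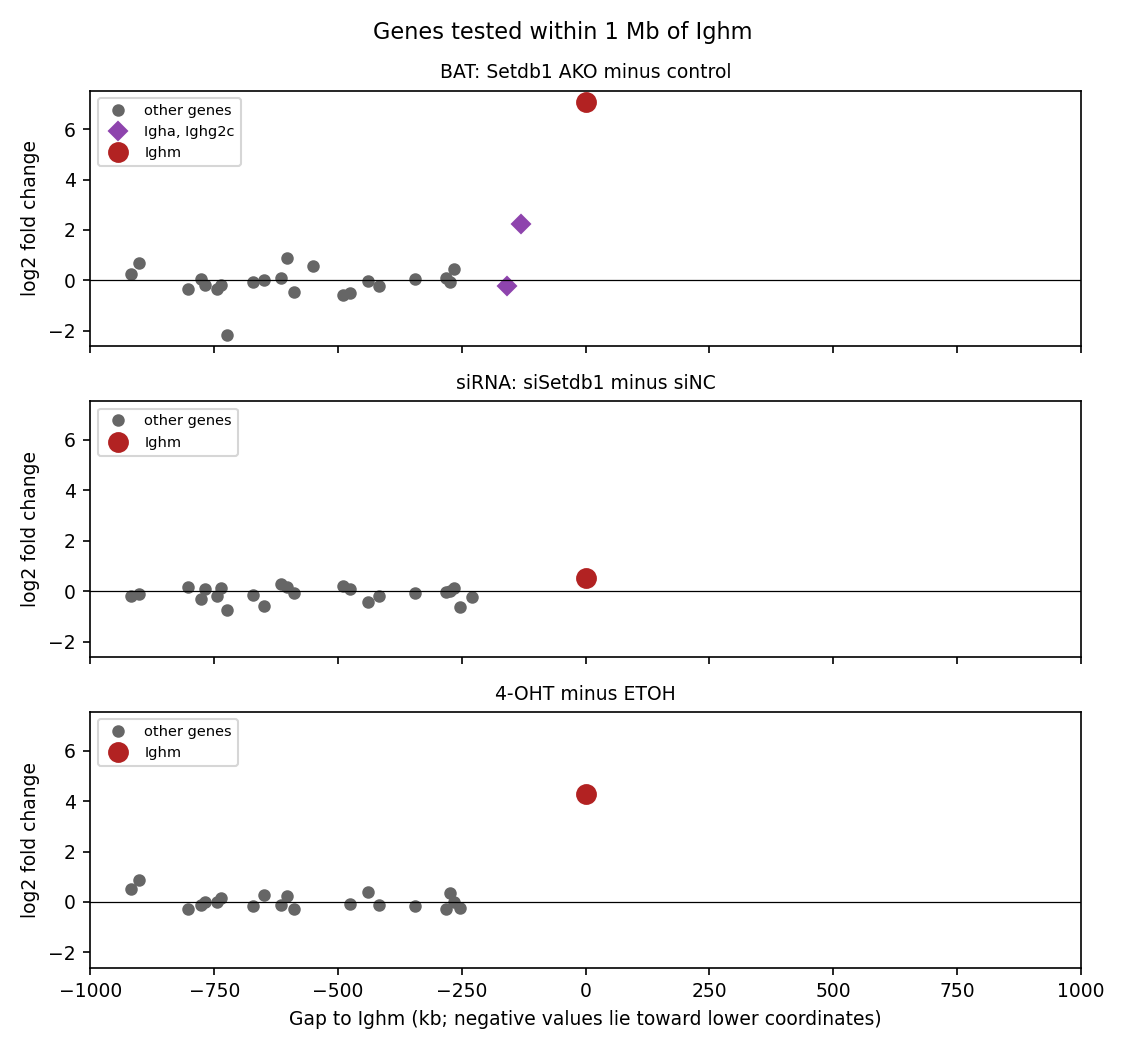
Fitted log2 fold change of every gene tested within 1 Mb of Ighm, by its gap to Ighm in kb, in BAT, siRNA and 4-OHT. Ighm stands at 7.07, 0.54 and 4.30, and every other gene lies between -2.15 and 2.22 in BAT, -0.76 and 0.27 with siRNA and -0.28 and 0.89 with 4-OHT.

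Over the 9 libraries, the genes whose levels followed Ighm most closely were taken from 16906 genes with a row in all 3 experiments and at least 10 reads in 2 libraries. Likeness was the root mean square difference of log2(RPM + 1) after each gene was centred on its mean within each experiment, so that a level shared by all libraries of an experiment does not count. The 5 nearest were Gm15287 (0.873), Gm14267 (0.973), Elovl3 (1.00), Mlf1 (1.03) and Eci2 (1.03), while the root mean square of Ighm itself was 2.40. Igkc, Ighd, Cd79b and Ms4a1 have no row in the culture tables and could not be among them. The 4 BAT libraries and the 4-OHT pair set these values, since Ighm varied little among the siRNA libraries.

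Gm15287, the nearest, had 6224 and 7495 reads in AKO BAT, against 0 and 1 in controls, and 1729 with 4-OHT, against 0 with ETOH. In the siRNA libraries it had 0 and 1 reads with siSetdb1, against 1 with siNC, where Ighm had 1374 and 1056, against 853. Elovl3, a fatty acid elongase of brown fat, had 5151 and 5819 reads in AKO BAT, against 282 and 322 in controls, and 16633 with 4-OHT, against 2872 with ETOH. Eci2, an enzyme of fatty acid oxidation, had 31642 and 30149 reads in AKO BAT, against 2081 and 1694 in controls.

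Over the 4 BAT libraries, the genes most like the receptor subunit Cd79a by the same measure were Phactr4 (0.016), Rnf139 (0.025), Ccdc86 (0.025), Snord58b (0.027) and Ppp1r15a (0.028). Cd79a had at most 19 reads and its own root mean square was 0.32. These genes were the nearest of 14514 compared over only 4 libraries. The scale log2(RPM + 1) also flattens the differences of Cd79a, which lay at 0.241 to 1.19 RPM. Its ratio of normalised means was 0.326, while Phactr4 had 240 and 240 reads in AKO libraries, against 317 and 410 in controls. Little can therefore be read from the small distances.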

How the data were processed

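Reads were counted per gene in 4 BAT, 3 siRNA and 2 4-OHT or ETOH libraries, each a poly(A)-selected NEBNext Ultra II library per the labels. Per the submitters' processing notes, the build was GRCm38 and the tools were featureCounts 2.0.3, STAR 2.7.10a, DESeq2 1.36.0 and Trimmomatic 0.39, listed without an order. The annotation release, the strand setting and the handling of reads with several matches are not given in the sources used here.

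The deposited signal of the BAT and siRNA tables is a read count scaled by 1 factor per library, by the authors, and for 4-OHT and ETOH the authors deposited the unscaled count; gene lengths are those of the file headers. Dividing the signal by its step gave back whole reads: at least 99.995% of values lay within 0.05 of a whole number. The 2 siRNA tables share the siNC library, whose recovered reads were identical in all 19381 shared genes, and were joined through it (link factor 1.0024). The smallest total of a row is 2 reads.

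BAT and siRNA were fitted with limma 3.58.1 (lmFit, eBayes with trend) on log2(normalised count + 1), which understates changes of genes with few reads, for genes with at least 10 normalised counts in 2 BAT libraries or 1 siRNA library, with Benjamini-Hochberg adjustment over all genes and calls below 0.05. The siRNA fit has 1 residual degree of freedom and takes the spread of the siSetdb1 libraries for siNC as well. The 4-OHT pair was described by log2 ratios of TMM-scaled CPM with a prior count of 2 (edgeR 4.0.16), for genes with at least 50 reads in 1 library. Exact 95% intervals cover counting error only, and reads without molecular identifiers are not independent molecules. The fits were tested on simulated data.

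The members and the 14 gene lists (129 genes) were chosen with earlier results of these data known. Named genes are Setdb1, the 7 members, up to 4 genes of a list with the smallest p in BAT, the nearest tested neighbours within 1 Mb, the 3 V segments with most reads, and the 5 genes most like Ighm or Cd79a. Other named list genes, Pax5, Spib, Ly6d, Fcrl1, Mzb1 and Tnfrsf17 among them, were named as cell type markers or after their values were seen. Alternatives were other pseudocounts and filters, TMM scaling, edgeR, DESeq2 1.42.0, a replicate block and leaving out each library.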

Additional observations from a re-analysis of the deposited data

Results flagged for a closer look

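Cd79a, the receptor subunit, had opposite signs in BAT and in the siRNA cells. The mean difference of log2(normalised count + 1) was -1.36 for Setdb1 AKO minus control BAT, where both AKO libraries (4 and 5 reads) lay below both control libraries (10 and 19 reads). It was 1.26 for siSetdb1 minus siNC, where both siSetdb1 libraries (10 and 7 reads) lay above the siNC library (3 reads). The difference between these was not tested, and all values rest on at most 19 reads.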

How the results depend on the processing

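In BAT, limma called 145 genes higher and 98 lower. These counts were 11 and 0 with no filter on low values, and 364 and 287 with DESeq2 on recovered reads. Leaving out each library in turn gave 22 to 98 higher and 0 to 59 lower. With siRNA, where limma called 5 higher and 1 lower, the counts were 0 and 0 with no filter, 22 and 7 with a filter of 50 normalised counts, 29 and 8 with edgeR, 8 and 3 with DESeq2, and 14 and 5 with TMM scaling, and a pseudocount of 5 gave 2 lower. With a filter of 10 reads in 4-OHT, 587 genes were at least 2-fold higher and 795 lower, in place of 179 and 231. The causes were not tested, except that the wider filters admit more genes with few reads. No siRNA count is given with a library left out, since 2 libraries leave no residual degree of freedom.

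The log2 fold change of Ighm in BAT ran from 6.69 to 7.45 with single libraries left out and stayed positive under every alternative in all 3 experiments. That of Igkc ran from -0.61 to 0.49 and that of Jchain from -0.10 to 1.29 with single libraries left out, so each changed sign, and neither was called under any alternative (adjusted p 0.666 to 0.975 for Igkc and 0.358 to 0.996 for Jchain). Library numbers are shared by the genotypes, but the deviations of same-numbered libraries from their group means did not correlate (r = -0.0151 over 14466 genes), so the numbers are not taken as pairs. With the replicate block, Ighm stood at 7.07, Igkc at -0.06 (adjusted p = 0.931) and Jchain at 0.59 (adjusted p = 0.415), with 181 genes called higher and 118 lower. Medians of the lists with single libraries left out ranged from -0.23 to 0.43 for the tested genes of the B cell list, -0.77 to 0.29 for T cell genes and -0.31 to 0.45 for macrophage genes in BAT. With 2 libraries a group and under 20 reads for Ighd, Cd79a, Cd79b and Ms4a1, depth limits what can be said of them.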
